A study of Homo sapiens with 21 samples.

Results

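Described here are the clusters of the RNA-binding protein FUBP3 that the deposited annotation places in 3' untranslated regions (3' UTRs). The members are all clusters with the region class 3'utr in the 3 fluorescent PAR-CLIP libraries of FUBP3, made with RNase I at 0.15, 0.5 and 1.5 U/ul. They number 30712, 34014 and 16601 clusters in order of dose, 81327 in all, of 422095 clusters in these 3 libraries and 855812 clusters in the 17 cluster files of the series. All groups were established Flp-In T-REx 293 cells, a human embryonic kidney line, each carrying a stably integrated FLAG-HA-tagged transgene and grown with 100 uM 4-thiouridine for 8 to 12 h before crosslinking with 0.3 J/cm2 of UVA or UVB light. The groups used are the FUBP3 libraries at 0.15, 0.5 and 1.5 U/ul RNase I, the KHSRP libraries at those doses, CPSF1 at 0.5 U/ul and AGO2 at 0.15 and 1.5 U/ul, plus 1 non-fluorescent PAR-CLIP library each of FUBP3 and KHSRP made with RNase T1 at 0.5 U/ul. The tagged protein was expressed beside the cell's own copy, and the labels name no clone, no control pulldown and no second library at any dose, so dose differences stand without a spread between replicates. KHSRP cells were lysed in a RIPA buffer with sonication, per the labels, while the buffer used for FUBP3 is not named there, so protein and lysis cannot be told apart where FUBP3 and KHSRP are compared.

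In PAR-CLIP a crosslinked 4-thiouridine is copied as C, so a T-to-C change marks RNA that touched the protein, and reads that carry such changes are grouped into clusters. FUBP3 and KHSRP belong to the far upstream element-binding family, whose KH domains hold short U-rich and AU-rich stretches of single-stranded nucleic acid. KHSRP is known for recruiting decay enzymes to AU-rich mRNAs, while the rat counterpart of FUBP3, MARTA2, binds the 3' UTR of the dendritic Map2 mRNA. The 3' UTR is the stretch after the stop codon where proteins and microRNAs set the stability, place and translation of an mRNA.

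The strongest sites are shown first, since the later results return to them. They are the 12 sites with a 3' UTR cluster at all 3 doses and the highest mean share of 3' UTR reads, 1 per gene, and each line holds the 30 bases around the deposited mode position of the most read cluster at 1.5 U/ul, the dose with the shortest clusters. Bases are written 5′ to 3′ on the RNA strand with T for U, and coordinates are hg38. Capitals mark the U-run word TTTTT, the GU-containing words TTGT and also TGTA, which can overlap each other, and the AU word TATA.
PMAIP1 (chr18:59904050-59904079, plus strand): aagagtctTATAactacttgaaTTTTTagt
ZNF711 (chrX:85273261-85273290, plus strand): gtacacgcTGTAaaataagatcgctactgt
HNRNPA0 (chr5:137752897-137752926, minus strand): tTTGTgttacagtcattgatggactctatt
STMN1 (chr1:25900705-25900734, minus strand): ctagtacTGTAttggctctgtgaaaacata
PTP4A1 (chr6:63581370-63581399, plus strand): aataattTTGTcagtgttcaccagcTTGTA
SCML1 (chrX:17754013-17754042, plus strand): TATAggatagatagaatggttattttatgc
SDE2 (chr1:225983489-225983518, minus strand): gtaatatcgatgagattaagtggttgatag
KLHL15 (chrX:23985482-23985511, minus strand): gatagttgctgttgcttgggttctgaatgt
MTHFD2 (chr2:74215021-74215050, plus strand): taTTGTATAgtttctttggTGTAtcttaaa
IRF2BP2 (chr1:234606841-234606870, minus strand): aTGTAggctgtgacttgcgctgcTTTTTTa
OAZ1 (chr19:2273210-2273239, plus strand): TTGTAatcgtgcaaataaacgctcactccg
HSP90AA1 (chr14:102081303-102081332, minus strand): catcTTGTAggatctacTTTTTgaactttt
The MTHFD2 window has the most T, at 53.3% of its bases, and the ZNF711 and OAZ1 windows the least, at 26.7% each. No single one of the marked words is in all 12 windows, and the SDE2 and KLHL15 windows hold none of them. Only the RNA strand was searched, and a word in a window describes the sequence and is no binding site by itself. Among FUBP3 3' UTR clusters of 20 to 40 nt at 0.15 U/ul, 18.7% held TTTTT, 36.8% TTGT, 30.1% TGTA and 19.7% TATA, so each of these words is common.

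FUBP3 clusters lay in 3' UTRs more often than KHSRP clusters at every dose, and the gap was widest among clusters built from several different reads. The share of all FUBP3 clusters in 3' UTRs was 19.0%, 18.9% and 20.8% at 0.15, 0.5 and 1.5 U/ul, against 8.65%, 9.23% and 8.77% of KHSRP clusters. The 2 sets of libraries did not overlap. By reads, 3' UTR clusters held 37.2%, 37.0% and 30.5% of FUBP3 reads, and 11.8%, 12.6% and 10.3% of KHSRP reads. Among clusters with at least 3 distinct read sequences, 63.6% (95% Wilson interval 62.9 to 64.3), 63.1% (62.5 to 63.8) and 67.7% (66.4 to 68.9) of FUBP3 clusters were in 3' UTRs, against 10.7% (10.6 to 10.9), 13.003% (12.7 to 13.3) and 17.7% (16.5 to 18.9) of KHSRP clusters. Such clusters made up 12.5%, 11.8% and 6.73% of all FUBP3 clusters and 64.1%, 48.0% and 13.9% of all KHSRP clusters. The number of distinct sequences thus moved with the protein as well, and its part in the difference was not tested. A two-sided exact permutation test over the 3 libraries of each protein gave p = 0.1 for the share of clusters, the smallest value that 3 against 3 allows, and an adjusted p of 0.271 over the 19 measures compared. The libraries of a protein differ in dose, so this p covers the spread over doses and no spread between replicates.

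**Figure D1:**
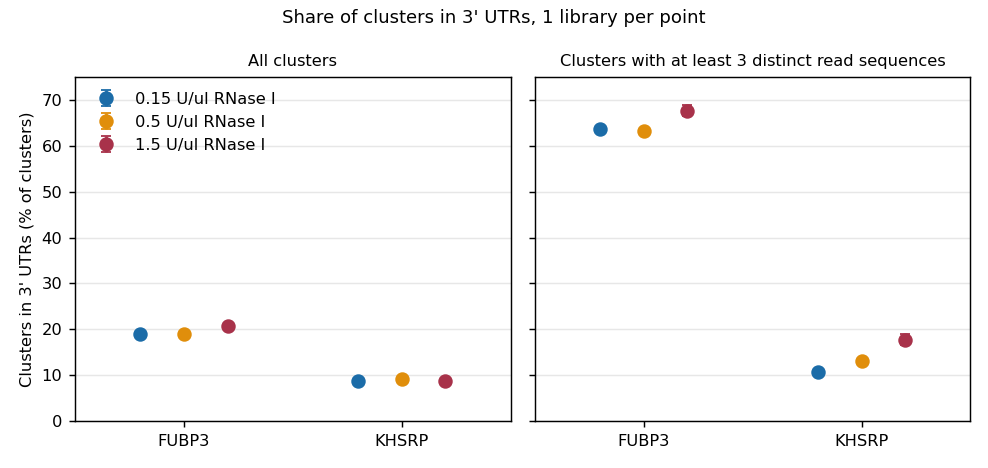
Share of clusters in 3' UTRs (vertical axis, % of clusters) in the 3 FUBP3 and 3 KHSRP libraries, with all clusters on the left and those with at least 3 distinct read sequences on the right. Each point is 1 library, colours give the RNase I dose and bars are 95% Wilson intervals for counting error. FUBP3 points lie above all KHSRP points in both panels, at 63.1% to 67.7% against 10.7% to 17.7% on the right.

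The FUBP3 introns of the same libraries held many more clusters but few with several distinct read sequences. Of the 3' UTR clusters, 36.8%, 39.1% and 57.7% came from a single read sequence at 0.15, 0.5 and 1.5 U/ul, against 79.2%, 79.9% and 85.6% of intron clusters. The median 3' UTR cluster held 10, 11 and 10 reads, and the median intron cluster 7, 7 and 8. Over the 3' UTR clusters, the summed reads were 625912, 731302 and 246868, or 56.2, 58.4 and 48.0 reads per 100 nt covered. In intron clusters the density was 25.5, 26.3 and 29.5 reads per 100 nt. Every 3' UTR cluster held at least 5 reads, of which at least 4 carried a T-to-C change, so weaker contacts are below what these lists can show.

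Most 3' UTR clusters were short, and a small class of wide clusters held much of the signal at the 2 lower doses. The median length was 31, 31 and 29 nt at 0.15, 0.5 and 1.5 U/ul, against 32, 31 and 30 nt for KHSRP 3' UTR clusters and 30, 30 and 29 nt for FUBP3 intron clusters. The medians differed little between proteins (exact permutation p = 0.7, adjusted p = 0.831) or between 3' UTRs and introns (exact sign-flip permutation p = 0.5, adjusted p = 0.531 over 17 measures). The longest 3' UTR clusters reached 494, 646 and 463 nt. Clusters of at least 100 nt numbered 645, 777 and 46, which is 2.10%, 2.28% and 0.277% of the 3' UTR clusters. These wide clusters held 21.6%, 22.3% and 4.30% of the 3' UTR reads. KHSRP had wide 3' UTR clusters as well, at 3.40%, 1.54% and 0.0823%, and the proteins overlapped in this measure (exact permutation p = 1). In introns 0.0298%, 0.0234% and 0.0140% of clusters were that long, so wide clusters were commoner in 3' UTRs at each of the 3 doses. That difference had an exact sign-flip permutation p of 0.25, the smallest that 3 libraries allow, and an adjusted p of 0.304.

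Most wide clusters overlapped a cluster at the highest dose, and typically a shorter one. Of the 645 wide clusters at 0.15 U/ul, 570 (88.4%, Wilson interval 85.7 to 90.6) overlapped a 3' UTR cluster at 1.5 U/ul, against 20.5% of all 3' UTR clusters at 0.15 U/ul. Of these 645, 284 overlapped 2 or more clusters at 1.5 U/ul, and the longest cluster found on a wide one had a median of 39 nt, against a median of 129 nt for the wide clusters themselves. An overlap of 1 nt was enough, so a wide cluster meets others more easily than one of 31 nt, the median of all 3' UTR clusters. Wide clusters also had a median of 140 reads, against 10 for all 3' UTR clusters. The parts of length and of read number in this overlap were not tested. PMAIP1, the p53-induced cell death protein NOXA, kept wide clusters at every dose. Its site at chr18:59903102-59904294 (plus strand, 3' UTR) spanned 1193 nt and held 6, 3 and 9 clusters at the 3 doses, the longest of 494, 646 and 463 nt, which was also the longest 3' UTR cluster of each library. In SDE2, a protein of DNA replication and splicing, the site spanned 860 nt and held 2, 3 and 11 clusters, with the longest of 442, 430 and 81 nt.

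**Figure D2:**
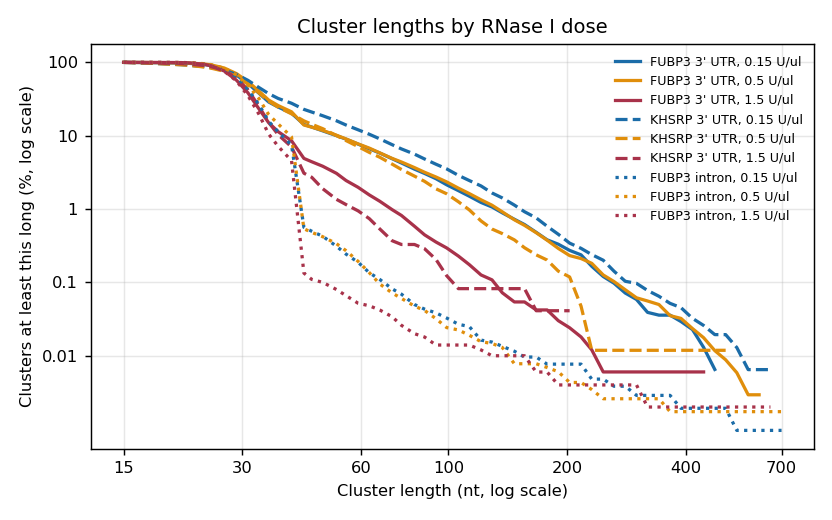
Percentage of clusters at least as long as the value on the horizontal axis (nt, both axes logarithmic), for FUBP3 3' UTR clusters (solid), KHSRP 3' UTR clusters (dashed) and FUBP3 intron clusters (dotted), coloured by RNase I dose with 1 library per line. The 0.15 and 0.5 U/ul solid lines cross 100 nt at 2.10% and 2.28% and the 1.5 U/ul line at 0.277%.

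FUBP3 reads spread over many 3' UTRs, with no gene above 1% of them. In all, 8383 genes had a FUBP3 3' UTR cluster, and 4272 of them (51.0%) had one at all 3 doses. The 20 genes with the highest mean share together held 7.51%, 6.75% and 7.49% of the 3' UTR reads at 0.15, 0.5 and 1.5 U/ul, and 527, 600 and 564 genes were needed to reach 50% of the reads. PMAIP1 led with 5534, 5704 and 1995 reads, or 0.884%, 0.780% and 0.808% of the 3' UTR reads. It was the highest of all genes in each library.

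The genes after PMAIP1 were of several kinds, and no grouping among them was tested. KLHL15, a substrate adaptor of the CUL3 ubiquitin ligase, had 4370, 4622 and 1726 reads, and FEM1B, a substrate receptor of CUL2 ligases, had 1465, 1709 and 489. SCML1, a Polycomb-related protein, had 2530, 2767 and 1500 reads, and its share was larger at 1.5 U/ul (0.608%) than at 0.15 U/ul (0.404%) or 0.5 U/ul (0.378%). ZNF711, a zinc finger transcription factor, had 2833, 3278 and 1081 reads in shares of 0.453%, 0.448% and 0.438%, the most even of these genes across doses. The transcription factors SOX4 and CEBPG had mean shares of 0.274% and 0.242%, the cofactor IRF2BP2 had 0.310%, and TSC22D3, the glucocorticoid-induced leucine zipper protein, had 0.276%.

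HNRNPA0, an hnRNP protein that binds AU-rich mRNAs, had 2424, 2624 and 1087 reads, or 0.387%, 0.359% and 0.440%. SRSF2, an SR splicing factor, had 1911, 2393 and 923 reads, or 0.305%, 0.327% and 0.374%. NUFIP2, a partner of the fragile X protein, had 66, 60 and 32 separate 3' UTR clusters, the most in the top 20 at 0.15 and 0.5 U/ul, while KLHL15 had the most at 1.5 U/ul with 34. G3BP1, which nucleates stress granules, had 43, 41 and 30 clusters and a share of 0.182%, 0.240% and 0.297%. STMN1, which encodes the microtubule-destabilising protein stathmin, had 3, 1 and 4 clusters for 1293, 1304 and 797 reads.

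Others of the top 20 were TMPO (a nuclear lamina protein), PTP4A1 (a phosphatase), ARPP19 (a mitotic inhibitor of the phosphatase PP2A), TOMM20 (the mitochondrial import receptor) and SDE2, with mean shares of 0.379%, 0.327%, 0.301%, 0.301% and 0.230%. In all 20 the 3' UTR held most of the gene's FUBP3 reads, from a mean over doses of 70.4% in ZNF711 to 99.5% in SRSF2. Across the 1189 genes with at least 50 3' UTR reads at each dose, log2 shares at 0.15 U/ul had a Pearson r of 0.852 with those at 0.5 U/ul and of 0.805 with those at 1.5 U/ul. These are descriptions across genes, which share the same libraries and are not independent replicates.

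**Figure D3:**
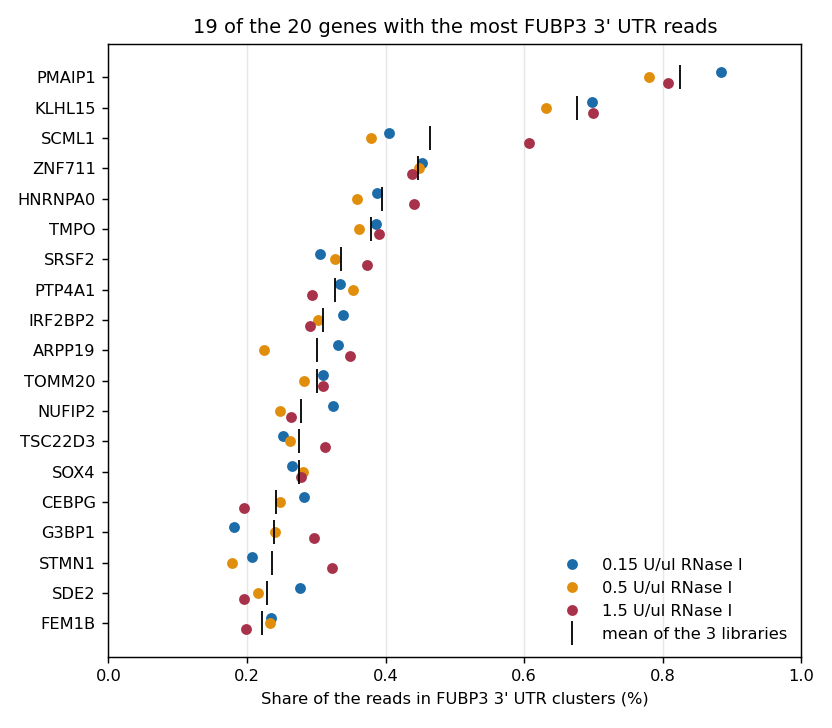
Share of the reads in FUBP3 3' UTR clusters (horizontal axis, %) of 19 of the 20 genes with the highest mean share. Coloured points are the 3 libraries by RNase I dose and the black tick is their mean; PMAIP1 lies at 0.780% to 0.884% and all others at 0.699% or less.

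T-to-C values were lower in 3' UTRs than in introns once clusters were weighted by their reads. The deposited value is the fraction of a cluster's reads with a T-to-C change, and its median over 3' UTR clusters was 100% at all 3 doses, and 57.8%, 58.5% and 75.6% of the clusters stood at 100%. Weighted by reads, 68.8%, 68.5% and 77.6% of the reads in 3' UTR clusters carried a T-to-C change at 0.15, 0.5 and 1.5 U/ul, against 93.8%, 93.6% and 96.8% in introns. The difference of 23.1 percentage points in the means had the same sign at all 3 doses (exact sign-flip permutation p = 0.25, adjusted p = 0.304). In clusters of 20 to 40 nt with at least 3 distinct sequences, the medians were 66.7%, 63.6% and 64.3% in FUBP3 3' UTRs and 78.6%, 73.3% and 94.1% in FUBP3 introns. The KHSRP 3' UTR medians for such clusters were 75%, 76.9% and 76.9%. FUBP3 3' UTRs were the lowest of the 3 sets at each dose under this filter, which was chosen after seeing the data. Over all 3' UTR clusters the order against KHSRP was not the same, with KHSRP medians of 77.8%, 83.3% and 100% and read-weighted KHSRP levels of 66.9%, 70.6% and 82.0%. In KHSRP introns the read-weighted levels were 75.1%, 80.6% and 93.0%, so a lower level in 3' UTRs than in introns was not particular to FUBP3. The mean 3' UTR minus intron difference was -9.75 percentage points in KHSRP and -23.1 in FUBP3.

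Genes differed in T-to-C level by a wide margin. Across the 1189 genes the mean over doses had a median of 72.9%, with quartiles of 66.0% and 78.5% and a range of 25.1% to 100%. The 3' UTR of PRDX3, a mitochondrial peroxiredoxin, was lowest, at 25.7%, 24.6% and 25% of 938, 366 and 400 reads. ATP6AP2, a subunit associated with the vacuolar proton pump, had 30.9%, 30.5% and 30.9% of 891, 722 and 99 reads. INO80D, a chromatin remodelling subunit, lay near the top with 96.9%, 96.5% and 100% of 131, 142 and 94 reads. In these 3 genes the level differed by less than 4 percentage points between doses, while other genes with low levels varied more, such as PSAP with 18.9%, 32.2% and 44.3% and SHFM1 with 12.7%, 31.3% and 39.3%. Across all 1189 genes the Pearson r was 0.576 between 0.15 and 0.5 U/ul and 0.501 between 0.15 and 1.5 U/ul.

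The gene lists had different medians on this scale, with ranges that overlapped in part and no test between them. The 5 cytoskeleton genes with enough reads lay between 33.3% and 45.9% with a median of 44.7%, and STMN1 had 43.8%, 38.7% and 44.5%. The others were ACTB and ACTG1, the cytoplasmic actins, TUBA1B, an alpha-tubulin, and PFN1, the actin-binding profilin, which was lowest with 37.4%, 27.0% and 35.4%. For 21 genes of SR and hnRNP proteins the median was 63.0% (38.5% to 77.8%), and the 9 genes with AU-rich elements had 62.4% (46.4% to 78.3%). The 4 genes of the microRNA machinery, AGO2, AGO3, TNRC6A and TNRC6B, lay at 80.8% to 92.3% with a median of 87.0%. Genes with more reads had lower levels, with a Pearson r of -0.416 between the mean T-to-C level and the log2 mean share over the 1189 genes. The share of T in the covered sequence had a Pearson r of 0.0871 with the T-to-C level. Every cluster held at least 4 T-to-C reads, so a cluster of few reads cannot have a low level. At 0.15 U/ul AGO3 had 76 reads in 11 clusters, TNRC6B 138 in 16 and TUBA1B 492 in 1. The part of read number and of this floor in these levels was not tested.

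**Figure D4:**
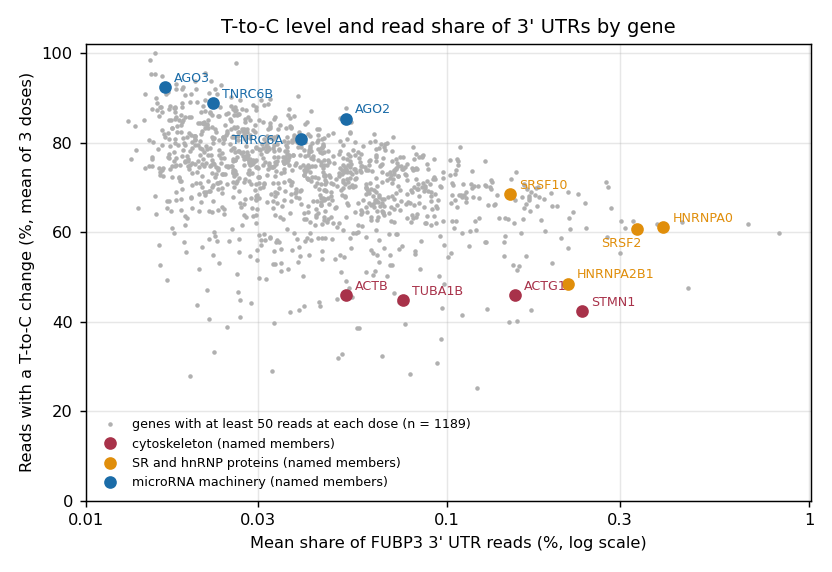
Mean percentage of 3' UTR reads with a T-to-C change (vertical axis) against the mean share of FUBP3 3' UTR reads (horizontal axis, %, logarithmic) for the 1189 genes with at least 50 reads at each dose (grey), 1 point per gene. Named members of 3 lists are coloured; the 4 cytoskeleton genes marked, which leave out PFN1, lie at 42.3% to 45.9% and the microRNA machinery genes at 80.8% to 92.3%.

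Sites that were found at every dose were few and carried a large part of the reads. Clusters sharing 1 nt or more of a strand were joined into 58916 3' UTR sites, of which 3877 (6.58%, Wilson interval 6.38 to 6.78) had a cluster at all 3 doses. The count depended on the definition, with 1559 sites when 50% of each cluster had to overlap, 2370 with at least 10 reads and 1473 with at least 3 distinct sequences per cluster. Over FUBP3 sites of all regions the share was 1.35%, and over FUBP3 intron sites it was 0.289%. For KHSRP 3' UTR sites it was 2.06%, in libraries with fewer 3' UTR clusters. The 3877 sites lay in 1914 genes, held 42.1% of the 3' UTR reads and spanned a median of 76 nt. A further 11000 sites were found at 2 doses and 44039 at 1 dose. A site of many reads is found at every dose more easily. At 0.15 U/ul the median cluster of an all-dose site had 28 reads and 6 distinct sequences, against 8 reads and 1 distinct sequence in sites of 1 dose.

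The sites named at the start were chosen for a cluster at every dose and a high mean share, so their values are a description. The ZNF711 site (chrX:85272641-85273347) had 2548, 2855 and 996 reads at 0.15, 0.5 and 1.5 U/ul, which is 0.407%, 0.390% and 0.403% of the 3' UTR reads. The STMN1 site (chr1:25900562-25900965) was less even, with 0.205%, 0.178% and 0.320%. The HSP90AA1 site (chr14:102081259-102081408), in the mRNA of the stress-inducible HSP90 chaperone, was a single cluster at each dose with 952, 941 and 393 reads. The OAZ1 site (chr19:2273170-2273462), in the mRNA of ornithine decarboxylase antizyme, had 1005, 1265 and 277 reads, of which 35.0%, 43.0% and 41.9% carried a T-to-C change. MTHFD2, a mitochondrial folate enzyme, had 939, 1001 and 464 reads at its site (chr2:74214758-74215066). All 12 named sites overlapped a cluster of the FUBP3 RNase T1 library, 9 of the 12 overlapped one of the KHSRP RNase T1 library, and all 12 overlapped a KHSRP 3' UTR cluster of some RNase I dose. Of the clusters in all-dose sites as a whole, 56.6%, 57.0% and 54.8% overlapped such a KHSRP cluster at 0.15, 0.5 and 1.5 U/ul.

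The separate FUBP3 library made with RNase T1 offered a measure that the doses did not enter. At 0.15 U/ul, 4.36% (4.06 to 4.68), 13.3% (12.6 to 14.01) and 30.8% (29.5 to 32.1) of 3' UTR clusters from sites of 1, 2 and 3 doses overlapped one of its 14563 clusters. The corresponding shares were 4.26%, 13.3% and 31.3% at 0.5 U/ul, and 4.84%, 12.6% and 27.7% at 1.5 U/ul. For the 14270 clusters of the KHSRP RNase T1 library they were lower at each step, with 1.23%, 3.596% and 9.02% at 0.15 U/ul. How many clusters of each RNase T1 library lie in 3' UTRs is not given here, and the part of that number in the lower overlap was not tested. The rise over the number of doses was not particular to FUBP3. At 0.15 U/ul the overlap with KHSRP 3' UTR clusters of any RNase I dose was 14.8%, 32.0% and 56.6%. For CPSF1 it was 0.896%, 1.57% and 2.78%, and for AGO2 at 0.15 U/ul 0.439%, 1.21% and 2.80%. Limited to clusters of 20 to 40 nt with at least 3 distinct sequences, the overlap with the FUBP3 library was 8.60%, 13.9% and 20.2% at 0.15 U/ul, and 13.2%, 20.0% and 32.5% at 1.5 U/ul. The order over the number of doses was the same in both cases. In the limited clusters at 0.15 U/ul the overlap with KHSRP RNase I clusters rose as well, with 24.8%, 35.0% and 47.5%. That with CPSF1 was 1.37%, 1.44% and 1.39% at 0.15 U/ul, but 1.43%, 1.42% and 2.63% in the limited clusters at 1.5 U/ul. With the AGO2 library of 0.15 U/ul it was 0.578%, 1.41% and 1.14% for limited FUBP3 clusters at 0.15 U/ul. For those at 1.5 U/ul it was 0.713%, 1.81% and 1.92%. Of the 3877 all-dose sites, 1442 overlapped the FUBP3 RNase T1 library and 451 the KHSRP one.

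**Figure D5:**
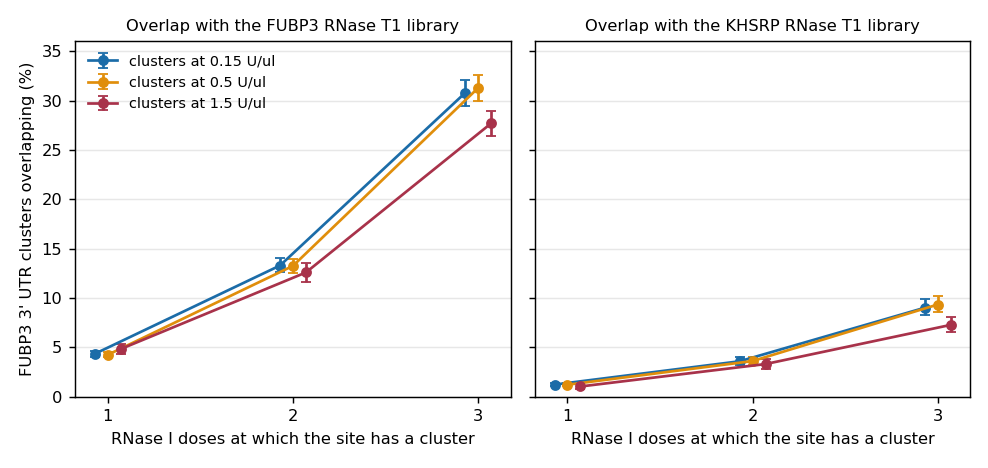
Percentage of FUBP3 3' UTR clusters (vertical axis) that overlap a cluster of the FUBP3 (left) or KHSRP (right) RNase T1 library, by the number of RNase I doses at which their site has a cluster. Colours give the dose of the clusters and bars are 95% Wilson intervals for counting error; the FUBP3 overlap at 0.15 U/ul is 4.36%, 13.3% and 30.8% for 1, 2 and 3 doses.

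Few sites had the same mode position at all 3 doses. Of 1035 all-dose sites with a cluster of at least 20 reads and 3 distinct sequences at every dose, 9 sites (0.870%), each in a different gene, had such clusters whose deposited mode positions lay within 2 nt of each other. The 3 below show how different such windows can be, with the same words in capitals as before.
CADM1 (chr11:115176145-115176174, minus strand): gTTTTTTGTTTGTTTGTtgcgttcctttct
FOXK1 (chr7:4771347-4771376, plus strand): atctattaaaTTGTTGTAtgtggatgggga
TMED7 (chr5:115615090-115615119, minus strand): acttttctttagttaatgagtattaaatag
The CADM1 window, in the mRNA of a cell adhesion molecule, repeats a T-rich unit with single G bases, and FOXK1, a forkhead transcription factor, has TTGTTGTA beside the mode. TMED7, a cargo receptor of the early secretory pathway, has none of the 4 words and had 492, 456 and 118 reads in its clusters, against 29, 40 and 28 in CADM1 and 28, 70 and 33 in FOXK1.

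FUBP3 3' UTR clusters held TTTTT more often and TATA, TGTA and the longer word TGTANATA less often than KHSRP 3' UTR clusters. TTTTT was in 21.8%, 21.2% and 20.8% of FUBP3 3' UTR clusters at 0.15, 0.5 and 1.5 U/ul, against 16.4%, 16.3% and 12.6% of KHSRP 3' UTR clusters. TATA was in 23.2%, 23.3% and 20.9% of FUBP3 clusters, against 30.8%, 32.7% and 24.2% of KHSRP clusters. TGTA was in 35.0%, 34.8% and 32.8% of FUBP3 clusters, against 44.1%, 45.1% and 35.97% of KHSRP clusters. The longer word TGTANATA was in 2.40%, 2.33% and 2.65% of FUBP3 clusters, against 4.41%, 5.57% and 3.74% of KHSRP clusters. For these 4 words and for TATATA the libraries of the 2 proteins did not overlap, each with an exact permutation p of 0.1 and an adjusted p of 0.271. For ATTTA the libraries overlapped, with 12.1%, 12.0% and 10.5% in FUBP3 and 14.2%, 13.9% and 10.3% in KHSRP (exact permutation p = 0.4, adjusted p = 0.633), as they did for TATAT and AATAAA. Longer clusters hold more words, and in clusters of 20 to 40 nt alone TTTTT was at 18.7%, 17.9% and 19.7% in FUBP3 and 12.4%, 13.8% and 11.6% in KHSRP. TATA in those clusters was at 19.7%, 19.95% and 20.0% in FUBP3 and 25.2%, 28.5% and 23.3% in KHSRP. The gaps in TTTTT and TATA were not particular to 3' UTRs. In introns TTTTT was in 16.1%, 16.3% and 16.9% of FUBP3 clusters and 11.7%, 11.9% and 9.82% of KHSRP clusters. TATA was in 18.6%, 19.1% and 16.3% of FUBP3 intron clusters and 27.3%, 28.8% and 22.1% of KHSRP ones. For TGTA the intron values were 26.2%, 26.4% and 25.04% in FUBP3 and 34.2%, 34.6% and 27.0% in KHSRP. For TGTANATA they were 1.06%, 1.01% and 1.03% in FUBP3 and 1.81%, 1.90% and 1.41% in KHSRP.

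All 5-base words were then ranked in clusters of 20 to 40 nt, over the 664 words present in at least 1% of FUBP3 3' UTR clusters at every dose. ATTTT was the most frequent, in 20.1%, 20.2% and 20.5% of FUBP3 clusters. At every dose 177 of the words were more frequent in FUBP3 than in KHSRP 3' UTR clusters and 137 less frequent. Of the 10 words furthest toward FUBP3, 9 consist of T and C, such as TTTTC with 12.3%, 12.3% and 11.8% of FUBP3 clusters and 8.33%, 7.94% and 7.77% of KHSRP clusters. TGTAA stood toward KHSRP, with 8.67%, 9.001% and 8.71% of FUBP3 clusters and 13.4%, 13.9% and 12.0% of KHSRP clusters. GGTGC was the other, in 1.46%, 1.37% and 1.37% of FUBP3 clusters and 0.980%, 0.915% and 0.883% of KHSRP clusters. Some of the words of T and C were rarer in 3' UTR than in intron clusters of FUBP3 at every dose. TTTCT, for example, was in 12.5%, 12.8% and 12.4% of 3' UTR clusters and 13.6%, 14.4% and 13.6% of intron clusters.

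Against the introns of the same libraries, 12 of the 13 words counted were in a larger share of 3' UTR clusters at every dose, GGGG being the exception. The same 12 words, except ATTTA at 1.5 U/ul, were in a larger share of 3' UTR than intron clusters of KHSRP too. This excess was therefore not particular to FUBP3. For TGTA the mean 3' UTR minus intron difference was 9.78 percentage points in KHSRP and 8.33 in FUBP3. For TTTTT it was 3.97 in KHSRP and 4.83 in FUBP3. TGTA was in 26.2%, 26.4% and 25.04% of FUBP3 intron clusters, below the 3' UTR values at each dose. TTTTT was in 16.1%, 16.3% and 16.9% of intron clusters, also lower at each dose. Each of these had an exact sign-flip permutation p of 0.25 and an adjusted p of 0.304, so neither passes a threshold of 0.05. The differences were smaller in clusters of 20 to 40 nt, where TGTA was in 30.1%, 30.005% and 31.1% of 3' UTR clusters and 26.0%, 26.3% and 24.99% of intron clusters. TATA there was in 19.7%, 19.95% and 20.0% of 3' UTR clusters and 18.6%, 19.0% and 16.3% of intron clusters. Of the 664 words of 5 bases in such clusters, 193 were more frequent in 3' UTRs than in introns at every dose and 275 less frequent. The T content itself was close, at 40.1%, 39.8% and 40.7% in 3' UTR clusters and 39.3%, 39.7% and 38.9% in intron clusters.

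FUBP3 3' UTR clusters lay near the last annotated end of their gene, and held the polyadenylation signal AATAAA, less often than CPSF1 ones. The mode position lay a median of 1571, 1525 and 1556 nt before the RefSeq 3' end of the gene, and 6.02%, 6.91% and 5.61% of clusters lay within 100 nt of it. For CPSF1, the subunit of the cleavage complex that works beside the AATAAA signal, 22.5% of 3' UTR clusters lay within 100 nt. AATAAA was in 3.13%, 3.72% and 2.26% of FUBP3 3' UTR clusters, and in 26.1% of CPSF1 ones. Only the gene's last annotated end was used, so clusters near an earlier end count as distant. The lengths of the 3' UTRs were not used, so the spread of clusters along them was not measured.

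Of the targets described for FUBP3 elsewhere, ACTB and FGF9 had 3' UTR clusters at every dose and MAP2 had none. ACTB, cytoplasmic beta-actin, had 294, 301 and 172 3' UTR reads, of which 48.0%, 52.5% and 37.2% carried a T-to-C change. FGF9, a fibroblast growth factor, had 41, 45 and 44 reads in 4, 3 and 5 clusters, of which 90.2%, 100% and 100% carried a T-to-C change. MAP2 had no 3' UTR cluster at any dose, and 19, 25 and 0 reads in clusters of other classes. Within the family itself, the FUBP3 mRNA had 416, 444 and 197 3' UTR reads and the KHSRP mRNA 130, 158 and 93. The FUBP1 mRNA had 180, 154 and 0 3' UTR reads.

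Gene lists differed in how many of their members had a 3' UTR cluster at every dose, against 51.0% of all genes with such a cluster. Genes of SR and hnRNP proteins, which set splice site choice, reached 22 of 22, and they held 2.49%, 2.02% and 2.32% of the 3' UTR reads. Of the 3' UTR regulators, 14 of 15 did, among them QKI, a STAR-family RNA-binding protein, with 708, 827 and 312 reads and CELF1, which binds GU-rich mRNAs, with 528, 672 and 273. Genes with AU-rich elements reached 11 of 14, led by CCND1, cyclin D1, with 964, 538 and 381 reads and JUN, a transcription factor of the AP-1 family, with 749, 870 and 131. The microRNA machinery reached 8 of 11. Cytoskeleton genes reached 5 of 12 (41.7%) and ribosomal protein genes 16 of 38 (42.1%), below the value over all genes. These counts leave out listed genes without a 3' UTR cluster. The full lists held 68 ribosomal protein, 14 cytoskeleton, 24 SR and hnRNP, 15 AU-rich and 11 microRNA machinery genes. The part of mRNA abundance in these counts was not tested, as no RNA levels were used here.

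Read shares of single genes changed between doses in a minority of cases. Of 2232 genes with at least 50 3' UTR reads at both 0.5 and 0.15 U/ul, 181 (8.11%) differed in share by at least 2-fold, 90 (4.03%) higher and 91 (4.08%) lower at 0.5 U/ul. Between 1.5 and 0.15 U/ul, 178 of 1221 genes (14.6%) did, 146 (12.0%) higher and 32 (2.62%) lower at 1.5 U/ul. With at least 200 reads at both doses only 14 of 685 and 9 of 201 genes were past 2-fold, and with at least 20 reads 614 of 3656 and 591 of 2469 were, so the counts move with the reads required. The 1.5 U/ul library had 246868 3' UTR reads, against 625912 at 0.15 U/ul. The same minimum therefore asks for a larger share at 1.5 U/ul, and genes with lower shares there drop out more easily. These counts thus do not compare the directions at 1.5 over 0.15 U/ul. Each dose is 1 library, and no test was made.

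For some genes with unequal 3' UTR reads, a large cluster was missing at a dose or had another region class there. HNRNPA2B1, an hnRNP protein, had 2982, 147 and 368 3' UTR reads at 0.15, 0.5 and 1.5 U/ul. At 0.15 U/ul 2844 of them were in a single cluster of 378 nt (chr7:26191853-26192230, minus strand) with 24.2% of reads changed. No cluster of any class lay on it at 0.5 U/ul and 2 did at 1.5 U/ul. HMGB2, a high-mobility group protein, had 0, 1359 and 656 3' UTR reads, and at 0.15 U/ul its 1432 reads were in a cluster of 420 nt classed at the stop codon. CDK1, the mitotic kinase, had 876, 227 and 259 3' UTR reads and 812 reads at the stop codon at 0.5 U/ul, so its log2 ratio of 0.5 over 0.15 U/ul was -2.17 for 3' UTR reads and 0.02 for all reads outside introns. ATP5G3, a mitochondrial ATP synthase subunit, had 54, 535 and 134 3' UTR reads and 347, 186 and 70 reads at the stop codon.

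Other genes stayed past 2-fold when all classes outside introns were counted, in part with a smaller ratio. ACTG1, cytoplasmic gamma-actin, had 1212, 1709 and 85 3' UTR reads, a log2 ratio of 1.5 over 0.15 U/ul of -2.49, and of -1.43 by all reads outside introns. PARP1, the DNA damage polymerase of ADP-ribose, had 64, 352 and 234 reads, with log2 ratios of 2.23 at 0.5 over 0.15 U/ul and 3.21 at 1.5 over 0.15 U/ul. LSM4, a subunit of the mRNA decay and splicing Lsm ring, had 89, 496 and 40 reads, and TOP2A, a topoisomerase, had 51, 323 and 104. As shares, TOP2A had 0.00815%, 0.0442% and 0.0421%, so the larger value was kept at 1.5 U/ul, while LSM4 had 0.0142%, 0.0678% and 0.0162%. Of the 181 genes past 2-fold between 0.5 and 0.15 U/ul, 152 were also past it in the same direction by all reads outside introns, and so were 129 of the 178 between 1.5 and 0.15 U/ul.

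The share of a gene within the 3' UTR reads could be set side by side for FUBP3 and KHSRP in 590 genes. For these genes with at least 50 FUBP3 reads and a KHSRP 3' UTR cluster at each dose, 24 (4.07%) had a share at least 2-fold higher in FUBP3 at every dose and 36 (6.10%) at least 2-fold lower. Genes entered through their FUBP3 reads, so these counts describe the genes that passed and do not compare the 2 directions. The median log2 ratio of the 590 genes was 0.32, 0.08 and -0.10 at 0.15, 0.5 and 1.5 U/ul. STMN1 stood furthest toward FUBP3, with 1293, 1304 and 797 FUBP3 reads against 88, 13 and 6 KHSRP reads. Its shares were 0.207%, 0.178% and 0.323% in FUBP3 against 0.0344%, 0.0114% and 0.0290% in KHSRP, and the smallest log2 ratio over the doses was 2.59.

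The next genes toward FUBP3 by this smallest ratio were MRFAP1 (1.81), TMEM123 (1.73), RAN (1.68), MTPN (1.61), RPL15 (1.60), CLIC4 (1.59), RSRC2 (1.55), PLS3 (1.51) and HNRNPAB (1.43), all as log2 values. RAN, the GTPase of nuclear transport, had 941, 1337 and 378 FUBP3 reads against 120, 42 and 6 KHSRP reads. MTPN, myotrophin, an actin-capping regulator, had 1048, 1426 and 435 against 140, 45 and 5. PLS3, the actin-bundling protein plastin, had 134, 485 and 272 against 19, 5 and 8. At 1.5 U/ul all 10 genes had between 5 and 8 KHSRP reads, so the ratio there rests on few reads.

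The 5 genes furthest toward KHSRP were chosen after their values were seen. LUC7L3, a U1-associated splicing factor, had 256, 181 and 109 FUBP3 reads against 1371, 687 and 58 KHSRP reads, with log2 ratios of -3.71, -4.61 and -2.67. ZNF207, a zinc finger protein of the mitotic checkpoint, had 718, 781 and 245 against 2017, 827 and 127, with -2.78, -2.77 and -2.63. PNISR, a nuclear protein with an arginine-serine region, had 142, 241 and 52 against 509, 230 and 23. The others were N4BP2L2 and AGFG1. They were ranked by the dose with the ratio nearest to equal shares, so the same sign at each dose followed from the choice.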

How the data were processed

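Cluster lists of 1 library each were used as deposited. Per the file headers, the authors gave each cluster raw counts of reads, of T-to-C reads and of distinct read sequences, and the fraction of its reads with a T-to-C change. That fraction equalled T-to-C reads over reads within 0.01 in 98.6% of the members. The submitters' processing notes name hg38, bcl2fastq 2.20.0 and cutadapt 1.15. The aligner, cluster caller and annotation are not given in the sources used here. Coordinates count from 1, as 726 of 726 clusters inside RefSeq promoters had the RefSeq bases (GRCh38.p14), and 65109 of 65109 clusters checked lay on the strand of their gene.

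From these files, reads were summed per gene as a share of a library's 3' UTR reads, clusters overlapping by at least 1 nt on a strand were joined into sites, and words were counted on the RNA strand. FUBP3 and KHSRP libraries were compared by two-sided exact permutation tests, 3' UTRs and introns by exact sign-flip permutation tests, with Benjamini-Hochberg adjustment, in Python 3.11.15 with pandas 2.3.3 and scipy 1.17.1. The functions were tested on simulated data. The files hold no reads outside clusters, so 3' UTR reads (246868 to 731302 in FUBP3, 20677 to 255900 in KHSRP) stand for depth. Reads are not independent molecules, so the 95% Wilson intervals cover counting error only. Labels alone set the groups.

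Named genes were the 20 with the highest mean share, the top 12 all-dose sites, the 5 furthest each way between doses, the 10 furthest toward FUBP3 over KHSRP, and up to 4 members per list, of which some are not reported here. The members, lists and rules were chosen with earlier results of these data known. Alternatives were minimum reads or distinct sequences, cluster length, weighting, overlap and leaving out a dose. Comparisons limited to clusters of 20 to 40 nt with at least 3 distinct sequences, gene ratios over all reads outside introns, and pairing FUBP3 with KHSRP by dose, were chosen after seeing the data. The U2AF1 libraries and the RNase T1 libraries of AGO2 were not used here.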

Additional observations from a re-analysis of the deposited data

How the results depend on the processing

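Of 39 alternative settings of the main comparisons, 28 kept the direction or stayed within 1.5 times the reported count. Among the 28 are the settings paired by dose, whose differences equal the main ones by construction and could not change. The FUBP3 minus KHSRP difference in the 3' UTR share of clusters was 10.7 percentage points, between 9.98 and 11.2 without any 1 dose, 22.6 with at least 10 reads, 51.0 with at least 3 distinct sequences and 23.3 by reads. The difference in clusters with TATA stayed between -11.55 and -5.48 percentage points. The difference in median length was -0.67 nt and turned to 2.33 nt with at least 3 distinct sequences. The difference in T-to-C level was 12.96 percentage points by the median over clusters and turned to -1.49 weighted by reads, -6.83 with at least 3 distinct sequences, and -11.4 with 20 to 40 nt as well. The cause was not tested. Sites at all doses numbered 1559 with an overlap of 50% of each cluster, 2370 with at least 10 reads and 1473 with at least 3 distinct sequences. Genes past 2-fold numbered 614 and 14 (0.5 over 0.15 U/ul) and 591 and 9 (1.5 over 0.15 U/ul) at minimums of 20 and 200 reads, where more or fewer genes were compared. CDK1 turned to a log2 ratio of 0.016 (0.5 over 0.15 U/ul) outside introns, where its stop codon reads are counted. No paired analysis was possible because the labels give FUBP3 and KHSRP no replicate numbers. Paired by dose, as chosen after seeing the data, the share and TATA differences had an exact sign-flip permutation p of 0.25 and those in length and T-to-C level 0.5. The FUBP3 3' UTR clusters listed hold at least 5 reads, and KHSRP at 1.5 U/ul has only 2430 3' UTR clusters. The part of depth in these limits was not tested.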

Other observations

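Zinc finger genes, the largest list, held 3.46%, 3.50% and 3.51% of the FUBP3 3' UTR reads at 0.15, 0.5 and 1.5 U/ul, and 167 of the 316 with a 3' UTR cluster had one at every dose, against 51.0% of all genes. ZNF678 followed ZNF711 with 988, 1110 and 466 reads in 40, 41 and 29 clusters. Endoplasmic reticulum chaperones and translocation factors had a cluster at every dose in 11 of 13 genes. CANX, the chaperone calnexin, led them with 622, 830 and 289 reads, of which 41.2%, 42.5% and 40.8% carried a T-to-C change.

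High-mobility group genes had a 3' UTR cluster at every dose in 7 of 10 genes, with HMGA2 at 246, 291 and 90 reads. Insulin and IGF signalling genes did in 6 of 10, led by IRS2, a docking protein of the insulin receptor, with 227, 398 and 113 reads. Ribosomal protein genes rarely had many reads, and RPL15 was the exception with 743, 834 and 274 reads against 150, 245 and 46 in RPL13, the next.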
